A study of Mus musculus with 8 samples.

Results

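In the healthy liver, hepatic stellate cells store vitamin A, secrete growth factors and matrix proteins, and carry receptors for hormones and neuropeptides. When the liver is injured, or when the cells are kept on plastic, they turn into matrix-producing myofibroblasts, and many genes of the resting state are turned down. The 8 genes described here were listed as markers of the resting cell. Reln, Hgf, Colec10, Colec11 and Ecm1 encode secreted proteins, Vipr1 and Pth1r encode cell-surface receptors, and Cygb encodes cytoglobin, an intracellular globin that is widely used as a stellate cell marker. They form a list of gene symbols with no measured value in its rule, drawn up with earlier results of these data known. Each had 1 probe set carrying a single symbol, so 8 of 8 were measured, among the 22180 genes on the arrays that had such a probe set.

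RNA levels were measured on 8 Affymetrix arrays of primary stellate cells of BALB/c mice, an inbred strain, with 2 arrays in each of 4 groups. Quiescent cells (0 h, no seeding) were taken from healthy animals, and cultured cells had spent 10 days on plastic dishes. The in vivo activated cells came, also without seeding, from animals made fibrotic with carbon tetrachloride (CCl4), a liver toxin, for 2 or 4 weeks. The labels give no age, sex, number or pooling of animals and no vehicle-treated group, and leave unsaid whether the paired arrays of a group had separate animals or dishes as their source. The p-values therefore reflect no more than the scatter of these samples, part or all of which may be technical. One protocol text common to every sample mentions valproic acid, a histone deacetylase inhibitor, at 2.5 mM after seeding, so whether the cultured cells were exposed to it cannot be told apart from culture. Levels are given in log2 RMA units, in which a step of 1 is a doubling, and differences as log2 fold change ± standard error (SE).

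Of 12 defining stellate markers 11 were measured, and 0 of the 11 had a group mean at or below 4.76 in any group, the 95th percentile of olfactory and vomeronasal receptor genes that serves as a guide to the array background. In culture 6 of them fell (Lrat, Rgs5, Hand2, Lhx2, Tcf21 and Dcn) and Col1a1 rose. At each CCl4 time 4 rose (Pdgfrb, Col1a1, Col1a2 and Col3a1), with 1 lower at 2 weeks and 3 at 4 weeks. Most fits leaving out 1 array lost the calls of Pdgfrb and Rgs5 at 2 weeks and of Col3a1 and Hand2 at 4 weeks. Desmin (Des) lay between 9.67 and 10.08 and decorin (Dcn) between 12.13 and 12.96 on all 8 arrays. Lrat, the enzyme that makes retinyl esters, read 10.95 and 11.29 in quiescent cells against 7.21 and 5.74 in culture. Markers of other liver cells were also present, and their levels differed between groups. The median of 20 hepatocyte markers was 9.59 and 8.08 on the quiescent arrays, 6.42 and 7.33 at 2 weeks of CCl4, and 5.96 and 5.75 at 4 weeks, with 4.68 and 4.72 for cultured cells. For comparison, the median of 16 sinusoidal endothelial markers was 9.57 and 8.69, then 7.20 and 7.61, 6.40 and 6.72, and 5.45 and 5.16 in the same order. In bulk samples such as these, fewer cells of a type and less RNA per cell cannot be told apart.

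The sequence just upstream of a start site is shown for 5 of the genes, to set those that fell in culture alone beside those that also fell after CCl4 (both sets are given below with their values). Each line holds the last 100 bases before an annotated start site in RefSeq, build GRCm38.p6, written 5′ to 3′ on the gene's own strand. The window searched reached 250 bases upstream. Of the 8 genes 6 had an entry, with 9 windows in all because Hgf and Pth1r have several start sites. Colec10 and Cygb had no entry, and Pth1r, which also fell after CCl4, is not shown. Capitals mark matches, on either strand, to 6 short motifs: the TATA box as TATAAA, the CCAAT box by its own letters, the site of TEAD proteins (the partners of YAP) as CATTCC, that of AP-1 as TGANTCA, that of GATA factors as GATAAG and that of LIM homeodomain factors as TAATTA. No marked matches overlap each other. The first 2 lines are genes that fell in culture only, Hgf (chr5:16553395-16553494, plus strand) and Reln (chr5:22344706-22344805, minus strand). The others are Ecm1 (chr3:95739570-95739669, minus strand), Colec11 (chr12:28623331-28623430, minus strand) and Vipr1 (chr9:121642616-121642715, plus strand).
Hgf: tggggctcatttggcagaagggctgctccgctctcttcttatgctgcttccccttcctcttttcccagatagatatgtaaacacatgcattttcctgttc
Reln: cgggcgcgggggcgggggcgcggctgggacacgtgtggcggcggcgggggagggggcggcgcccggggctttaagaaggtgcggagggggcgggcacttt
Ecm1: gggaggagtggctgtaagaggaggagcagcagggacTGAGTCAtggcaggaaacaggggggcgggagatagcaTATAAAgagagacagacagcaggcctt
Colec11: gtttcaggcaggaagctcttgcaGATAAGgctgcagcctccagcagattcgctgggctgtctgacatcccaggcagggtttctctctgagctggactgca
Vipr1: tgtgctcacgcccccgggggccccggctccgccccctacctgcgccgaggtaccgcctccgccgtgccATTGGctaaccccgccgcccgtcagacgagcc

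Ecm1 had a TATA box 27 to 22 bases before its start site and an AP-1 match 64 to 58 bases before it. Among all 32851 windows of the same 250-base length, 12.4% held the first and 6.75% the second. Colec11 held a GATA match 77 to 72 bases upstream and 1 of the 3 Pth1r windows held one 164 to 159 bases upstream, against 6.55% of all windows. Vipr1 and another Pth1r window held a CCAAT box, which 33.8% of all windows have. The remaining Pth1r window held none of the motifs, nor did the windows of Hgf and Reln. Neither CATTCC (12.6% of all windows) nor TAATTA (4.84%) was among the letters of any of the 9 windows. In base composition the windows ran from 50.8% G and C at the first start site of Hgf to 80% at Reln, against a median of 52.4% over all windows. These matches describe letters only and are no evidence of binding.

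All 8 genes were lower after 10 days of culture than in quiescent cells, 7 of them by more than 25-fold, while Ecm1 fell by 2.96-fold. After CCl4, 5 genes were lower at both times, by 1.6-fold to 5.32-fold, and these were Colec10, Colec11, Ecm1, Vipr1 and Pth1r. Reln, Hgf and Cygb fell in culture only. This means that they passed the threshold for a fall in culture and for being lower in culture than after CCl4, and did not pass it at either CCl4 time (limma, Benjamini-Hochberg adjusted p under 0.05 over all genes). No gene of the set was higher than in quiescent cells in any group.

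**Figure D1:**
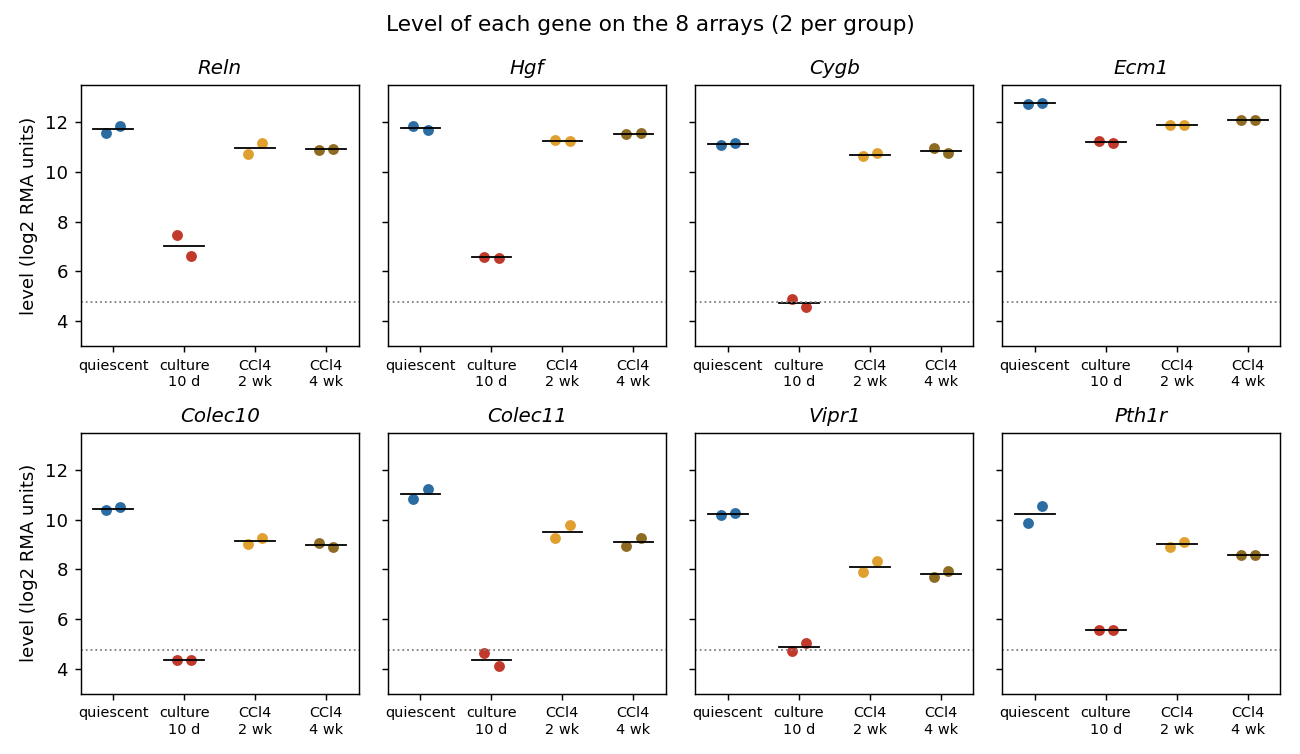
Level of each of the 8 genes (log2 RMA units, vertical axis) on the 8 arrays; points are arrays, black bars are means of 2 arrays, and the dotted line is the 95th percentile of olfactory and vomeronasal receptor genes (4.76). The cultured arrays (red) lie below all other arrays for every gene, and for Ecm1 alone they stay near the rest, at 11.24 and 11.15. How many of all genes show such a gap was not counted.

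The counts stand against a background of many changes. Over all genes, 10.3% were called lower in culture and 12.9% higher, and 8.72% were called lower in culture than after CCl4. At 2 weeks of CCl4 2.43% were called lower and 2.34% higher, and at 4 weeks 4.67% and 4.04%. The rule for a fall in culture only was met by 4.34% of all genes, compared with 3 of these 8. The median difference from quiescent cells of the 8 genes was -5.27 in culture, -1.04 at 2 weeks and -1.13 at 4 weeks, where the median over all genes was 0.01, 0.00 and 0.00. The genes were listed as markers of the quiescent state, so a fall in the group is no independent finding. The 3 comparisons with quiescent cells share the same 2 quiescent arrays.

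Among the secreted proteins, Hgf encodes hepatocyte growth factor, a mitogen that acts on hepatocytes through the receptor Met. Its level was 11.84 and 11.67 in quiescent cells, 11.28 and 11.23 at 2 weeks of CCl4, 11.51 and 11.56 at 4 weeks, and 6.58 and 6.56 after culture. Both cultured arrays lay far below the other 6, which spanned less than 1 log2 unit. Among those 6, every CCl4 array lay below both quiescent arrays. The fall in culture was 5.18 ± 0.13 on the log2 scale (36.3-fold, adjusted p = 1.13e-07). At 2 weeks of CCl4 the difference was -0.50 (95% interval -0.80 to -0.20, adjusted p = 0.0737) and at 4 weeks -0.22 (-0.52 to 0.08, adjusted p = 0.435). Cultured cells were lower than CCl4 cells by -4.82 ± 0.11 (adjusted p = 5.19e-08). The 2-week difference passed the threshold when the prior variance was allowed to follow intensity (adjusted p = 0.0284, and 0.032 with the robust option as well), and under those settings Hgf no longer counted as falling in culture only.

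Reln encodes reelin, a large secreted glycoprotein best known from neuronal migration and made in the liver by stellate cells. Its levels were 11.57 and 11.85 in quiescent cells, 10.72 and 11.17 at 2 weeks, 10.90 and 10.94 at 4 weeks, and 7.45 and 6.63 in culture. All 4 CCl4 arrays lay below both quiescent arrays, and the cultured pair was the most spread of the 4 groups. The fall in culture was 4.67 ± 0.26 (25.5-fold, adjusted p = 6.55e-06), and cultured cells were 14.8-fold below CCl4 cells (adjusted p = 7.23e-06). The CCl4 differences, -0.77 (95% interval -1.37 to -0.17, adjusted p = 0.169) and -0.79 (-1.39 to -0.19, adjusted p = 0.118), did not pass. At 4 weeks the difference did pass without culture replicate 1, without culture replicate 2 (adjusted p = 0.0496 each) and with only the arrays compared in the fit (adjusted p = 0.0466), all with the same value of -0.79. Under those 3 settings Reln no longer counted as falling in culture only.

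Colec10 and Colec11 encode collectins, secreted lectins that bind sugars on microbes and start the lectin pathway of complement with the MASP proteases. Colec10 read 10.38 and 10.52 in quiescent cells, 9.03 and 9.27 at 2 weeks, 9.05 and 8.90 at 4 weeks, and 4.37 on both cultured arrays. Colec11 stood at 10.83 and 11.25, then 9.27 and 9.78, 8.95 and 9.27, and 4.63 and 4.10 in the same order. For both genes the groups formed 3 tiers that did not overlap: quiescent, CCl4 and culture. In culture Colec10 fell by 6.08 ± 0.15 (67.5-fold, adjusted p = 1.01e-07) and Colec11 by 6.67 ± 0.25 (102-fold, adjusted p = 5.67e-07). At 2 and 4 weeks of CCl4 Colec10 fell 2.45-fold and 2.78-fold (adjusted p = 0.00234 and 0.000694), and Colec11 2.86-fold and 3.81-fold (adjusted p = 0.0119 and 0.00249). Cultured cells were below CCl4 cells by -4.69 ± 0.13 for Colec10 and -4.95 ± 0.22 for Colec11 (adjusted p = 9.26e-08 and 1.52e-06). The 2-week call of Colec11 was lost without 2-week replicate 1 (adjusted p = 0.108).

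Ecm1 encodes extracellular matrix protein 1, a secreted glycoprotein that has been described as restraining the activation of latent TGF-beta in the liver. It read 12.74 and 12.77 in quiescent cells, 11.87 and 11.88 at 2 weeks, 12.08 and 12.07 at 4 weeks, and 11.24 and 11.15 in culture. Replicates differed by less than 0.1 log2 units in every group, and the 4 groups did not overlap. The fall in culture, 1.56 ± 0.13 (adjusted p = 4.26e-05), was the smallest of the 8. The falls after CCl4 were 0.88 ± 0.13 at 2 weeks and 0.68 ± 0.13 at 4 weeks (adjusted p = 0.00675 and 0.0125). Culture was lower than CCl4 by -0.79 ± 0.11 (adjusted p = 0.00105). The 2-week call was lost without 2-week replicate 1 (adjusted p = 0.0562) and with only the arrays compared (0.051), and the 4-week call without 4-week replicate 1 or 2 (0.0878 and 0.0847).

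Vipr1 and Pth1r encode G-protein-coupled receptors of the secretin-like class, for vasoactive intestinal peptide and PACAP and for parathyroid hormone and its related protein. Vipr1 read 10.19 and 10.28 in quiescent cells, 7.88 and 8.33 at 2 weeks, 7.70 and 7.95 at 4 weeks, and 4.73 and 5.03 in culture. It had the largest CCl4 falls of the set, 4.38-fold at 2 weeks and 5.32-fold at 4 weeks (adjusted p = 0.000598 and 0.000248), and fell 41.0-fold in culture (adjusted p = 4.41e-07). Pth1r read 9.88 and 10.55, then 8.91 and 9.10, 8.59 and 8.60, and 5.55 and 5.58 in the same order. Its quiescent arrays were the furthest apart of the 8 genes, yet both lay above every CCl4 array. Pth1r fell by 4.65 ± 0.21 in culture (adjusted p = 1.77e-06), 1.21 ± 0.21 at 2 weeks (adjusted p = 0.0142) and 1.62 ± 0.21 at 4 weeks (adjusted p = 0.00239). Cultured cells were below CCl4 cells by 8.5-fold for Vipr1 and 9.43-fold for Pth1r (adjusted p = 4.56e-06 and 5.72e-06). The 2-week call of Pth1r was lost without 2-week replicate 1 (adjusted p = 0.12), without 2-week replicate 2 (0.0574) and with only the arrays compared (0.079).

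Cygb binds oxygen and nitric oxide and is found in stellate cells and other fibroblast-like cells. Its level was 11.07 and 11.16 in quiescent cells, 10.64 and 10.76 at 2 weeks, 10.96 and 10.76 at 4 weeks, and 4.90 and 4.58 after culture. The 6 arrays of freshly isolated cells lay within a narrow band, and both cultured arrays lay near the level of olfactory receptor genes. Cygb fell 83.2-fold in culture (adjusted p = 1.01e-07) and was 66.0-fold lower there than after CCl4 (adjusted p = 5.19e-08). Both folds depend on a cultured level near that guide, so their size is not exact. The CCl4 differences were -0.42 (95% interval -0.78 to -0.05, adjusted p = 0.221) and -0.25 (-0.61 to 0.11, adjusted p = 0.455). Cygb met the rule for a fall in culture only under all 16 alternatives tried.

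**Figure D2:**
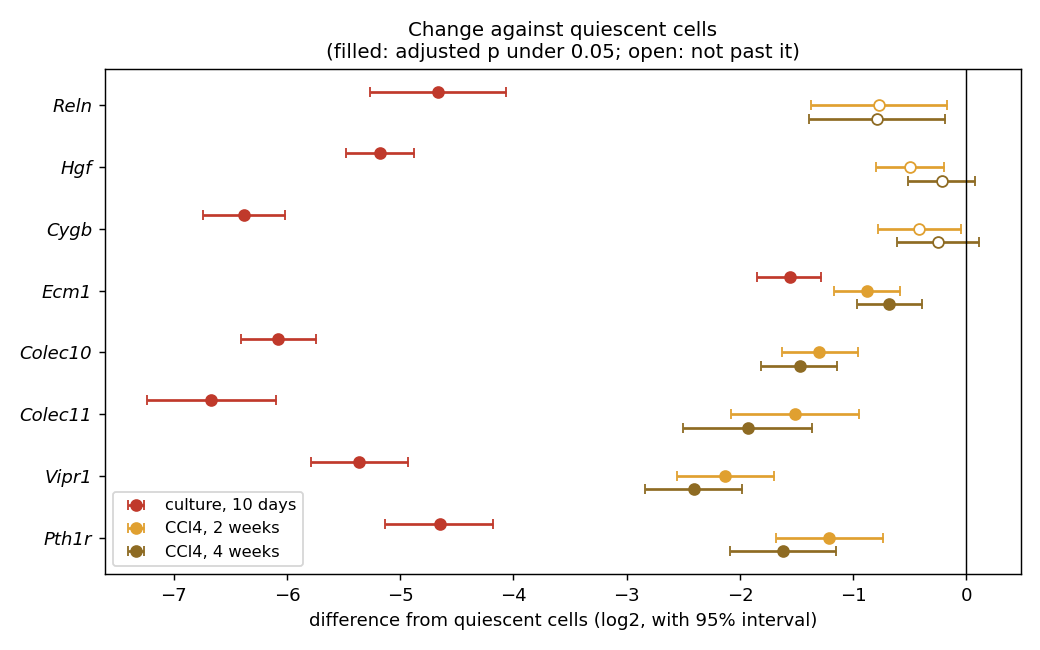
Difference from quiescent cells (log2, horizontal axis) for each gene in culture (red) and at 2 weeks (yellow) and 4 weeks (brown) of CCl4; bars are 95% intervals of the limma fit, and filled points passed an adjusted p under 0.05. Reln, Hgf and Cygb have open CCl4 points between -0.79 and -0.22, whereas the CCl4 points of the other 5 genes are filled.

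A missed threshold does not show that Reln, Hgf and Cygb kept their level after CCl4. At 2 weeks, all 8 genes had a 95% interval wholly below 0 (8 lower at an unadjusted p under 0.05), and at 4 weeks 6 did, the exceptions being Hgf and Cygb. How many of all genes had such an interval was not counted, so these counts only limit the reading of a missed threshold. What was tested is the gap itself: each of the 8 was lower in culture than in the mean of the CCl4 groups. Between 2 and 4 weeks of CCl4 limma called 0 of the 8, and 0 at an unadjusted p under 0.05, where 0.0857% of all genes were called in either direction. The widest differences between those times were -0.41 for Colec11 (95% interval -0.98 to 0.15) and -0.41 for Pth1r (-0.88 to 0.07). In order of level, each gene thus ran from quiescent to CCl4 to culture, with the 2 CCl4 times not told apart, and for Reln, Hgf and Cygb quiescent and CCl4 not told apart at the threshold.

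As a guide to the array background, 1390 olfactory and vomeronasal receptor genes, a set picked after the data were seen, gave a median level of 3.22, with the 95th percentile at 4.76. The cultured means of Colec10 (4.37), Colec11 (4.37) and Cygb (4.74) lay below that percentile, and Vipr1 had 1 cultured array on either side of it. Reln, Hgf and Pth1r, at cultured means of 7.04, 6.57 and 5.56, lay above it, as did Ecm1. For the 3 lowest genes the cultured mean thus lies in the upper part of the guide set, between its median and its 95th percentile. Their folds depend on where the array's floor lies, so the order of their falls is not measured.

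Most markers of hepatocytes, sinusoidal endothelial cells and macrophages were also called lower in culture. Lists of the other cell types went both ways or had few calls. In culture 17 of 20 hepatocyte markers, 16 of 16 sinusoidal endothelial markers and 13 of 16 macrophage markers were called lower. The log2 values of a list, summed on each array, are a sum of logs and not an amount of RNA. For hepatocyte markers this sum went from 165.50 to 188.21 in quiescent cells to 94.72 to 96.42. The median log2 difference per hepatocyte marker was -3.52. After CCl4 the hepatocyte sums were 142.84 to 153.79 at 2 weeks and 128.36 to 133.69 at 4 weeks. Endothelial sums were 139.51 to 155.29 in quiescent cells, 120.88 to 126.19 at 2 weeks, 110.81 to 116.35 at 4 weeks and 88.47 to 91.87 in culture. Against the 4.76 guide, 10 of 20 hepatocyte markers (Alb among them), 4 of 16 endothelial markers and 4 of 16 macrophage markers had a cultured mean at or below it, whereas in quiescent cells only the hepatocyte gene Cyp3a11 did among the 3 lists. In quiescent replicate 2, 18 of 20 hepatocyte markers and 15 of 16 endothelial markers were lower than in replicate 1 (median -1.15 and -0.90). There 7 of the 8 genes were higher (median 0.12), Hgf being the exception. Macrophage markers went both ways, with a list median of 7.64 in replicate 1 and 7.83 in replicate 2. All of these are differences within 1 pair of arrays. Between 2 and 4 weeks of CCl4 the macrophage list moved by a median of -1.29 and the endothelial list by -0.64, and the 8 genes by -0.10. Of 10 vascular smooth muscle markers 4 were called higher and 1 lower in culture, 4 and 1 at 2 weeks, and 6 and 0 at 4 weeks. Of 10 portal fibroblast and mesothelial markers 1 was higher and 4 lower in culture, 4 and 0 at 2 weeks, and 3 and 1 at 4 weeks. Macrophage markers had 2 higher and 1 lower of 16 at 2 weeks (median -0.05) and 0 and 10 at 4 weeks. Some calls in these lists were lost in most fits that left out 1 array. They included those of Pln, the smooth muscle gene lower in culture and at 2 weeks, and of Lyz2, a macrophage gene higher at 2 weeks. The medians of 11 lymphocyte and 6 cholangiocyte markers lay between 4.05 and 4.63 on all 8 arrays. The part of these markers in the falls was not tested.

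**Figure D3:**
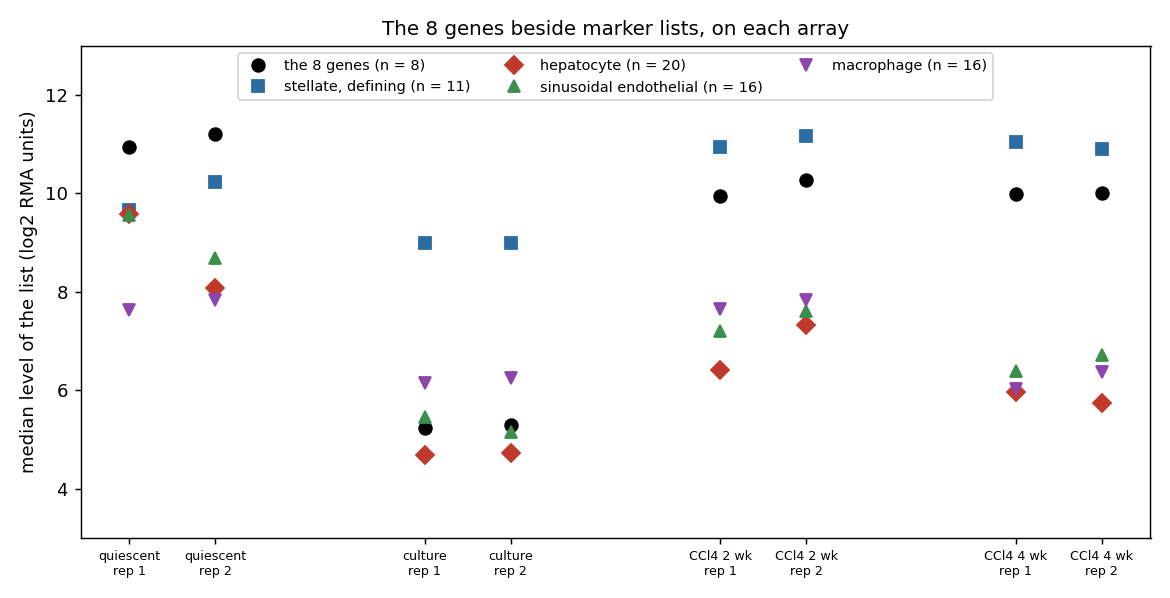
Median level (log2 RMA units, vertical axis) of the 8 genes and of 4 marker lists on each of the 8 arrays; n is the number of genes measured in each list. The 8 genes (black) rise slightly from 10.95 to 11.21 between the quiescent arrays and stay between 9.95 and 10.27 over the CCl4 arrays. Between the same quiescent arrays the hepatocyte markers (red) drop from 9.59 to 8.08 and the macrophage markers (purple) go from 7.64 to 7.83.

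The binding partners and relatives of the 8 genes changed less uniformly. Of 8 reelin pathway genes, 1 rose in culture and 0 fell, with 0 called at either CCl4 time. The riser was the reelin receptor gene Vldlr, from 4.06 and 3.97 to 5.01 and 5.10 (1.04 ± 0.14, adjusted p = 0.000703), the quiescent level being below the 4.76 guide, so that the size of the rise is not exact. Dab1, the adaptor that relays the reelin signal in neurons, named after its values were seen, lay between 3.58 and 4.07 on all 8 arrays. Of 10 genes of the HGF system, 2 rose and 2 fell in culture, and 1 rose at each CCl4 time. Plau, a protease able to process pro-HGF, rose in all 3 comparisons, by 2.36 ± 0.23 in culture, 2.36 ± 0.23 at 2 weeks and 2.38 ± 0.23 at 4 weeks (adjusted p = 0.000135, 0.00112 and 0.000669). The Met adaptor Gab1 fell in culture (-1.54 ± 0.20, adjusted p = 0.000675). Met rose from a quiescent mean of 4.23, also below the guide, to 5.12 (0.89 ± 0.19, adjusted p = 0.00852, and 0.0697 without culture replicate 2). Hgfac, the HGF activator, fell (-0.58 ± 0.17, adjusted p = 0.0397), a call lost in 4 of 8 fits that left out 1 array, up to an adjusted p of 0.235.

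Of 6 measured genes of the lectin pathway other than the 2 collectins, 4 fell in culture and 0 rose. Fcna, which encodes a ficolin, fell by 4.32 ± 0.20 (adjusted p = 2.01e-06), and also by 2.54 ± 0.20 and 2.17 ± 0.20 at 2 and 4 weeks of CCl4. The protease gene Masp1 stayed high, at 10.95 and 11.13 in quiescent cells and 10.41 and 10.16 in culture (-0.75 ± 0.15, adjusted p = 0.00535). The mannose-binding lectin genes Mbl2 and Mbl1, products of hepatocytes, fell in culture to means of 4.41 and 4.44, below the guide (adjusted p = 0.00965 and 0.0125), calls that were lost without culture replicate 1 (0.0559 and 0.0704), Mbl1 also without culture replicate 2, so that the count of 4 became 2 and 3. At 4 weeks of CCl4 3 of the 6 fell, Fcna, Mbl1 and Mbl2; Mbl1 lost that call in 7 of 8 fits that left out 1 array and Mbl2 in 2. The membrane collectin gene Colec12, named after its values were seen, was the 1 member higher at both CCl4 times (1.52 ± 0.16 and 1.79 ± 0.16, adjusted p = 0.00143 and 0.000403).

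Of 12 measured genes around the VIP and parathyroid hormone receptors, 4 fell in culture and 0 rose. They were the receptor-modifying proteins Ramp2 (-3.12 ± 0.19, adjusted p = 9.34e-06) and Ramp1 (-1.75 ± 0.21, adjusted p = 0.000388), the PACAP receptor Adcyap1r1 (-2.02 ± 0.18, adjusted p = 7.27e-05) and the adenylyl cyclase Adcy4 (-0.99 ± 0.23, adjusted p = 0.0142). The last was lost without culture replicate 1 or 2, up to an adjusted p of 0.0699. After CCl4 Adcyap1r1 stood at 7.27 on both 2-week arrays and at 7.28 and 7.16 at 4 weeks, against 7.45 and 7.71 in quiescent cells, and was not called. Ramp2 fell at both CCl4 times (-0.85 ± 0.19 and -1.25 ± 0.19, adjusted p = 0.0428 and 0.00526), and Ramp1 at 4 weeks (-0.85 ± 0.21, adjusted p = 0.0395). Those calls were lost in 6, 1 and 5 of 8 fits that left out 1 array. The sister receptor Vipr2 and the ligand genes Vip, Adcyap1 and Pth lay at or below 4.65 on all 8 arrays, and were also named after their values were seen.

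Of 8 genes tied to the release of latent TGF-beta, the setting in which Ecm1 has been described, 3 fell and 2 rose in culture, and 2 rose at each CCl4 time. Thbs1, which encodes thrombospondin 1, rose by 2.40 ± 0.16 in culture, 2.48 ± 0.16 at 2 weeks and 3.02 ± 0.16 at 4 weeks (adjusted p = 1.41e-05, 0.000143 and 4.05e-05). Mmp2 fell in culture (-2.46 ± 0.24, adjusted p = 0.000118) but rose at 2 weeks (2.00 ± 0.24, adjusted p = 0.00304) and 4 weeks (2.07 ± 0.24, adjusted p = 0.0014). Adamts1 (-2.70 ± 0.19) and the integrin gene Itgb8 (-3.08 ± 0.26) fell in culture alone among the comparisons with quiescent cells (adjusted p = 1.98e-05 and 5.89e-05). Of 5 measured globins and reductases beside Cygb, 2 rose in culture and 0 fell. These were Cyb5b (0.99 ± 0.22, adjusted p = 0.0106) and Cyb5r3, a reductase that can reduce cytoglobin (0.64 ± 0.18, adjusted p = 0.0294), lost in 2 and 5 of 8 fits that left out 1 array. Neuroglobin (Ngb) and myoglobin (Mb) lay between 4.56 and 5.41 on all arrays and were not called (named after their values were seen).

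Of 24 other genes listed as quiescent stellate markers, 20 fell in culture and 1 rose, with a median of -1.94. Nes, Pdgfrb and Des are on this list but were not called lower than in quiescent cells in any group. At 2 weeks of CCl4 8 fell and 1 rose (median -0.36), and at 4 weeks 11 fell and 2 rose (median -0.59). The rule for a fall in culture only was met by 8 of the 24. Steap4, a metalloreductase gene, met it with a pattern close to that of Cygb: 11.95 and 11.74 in quiescent cells, 4.50 and 4.45 in culture, and 11.55 to 11.65 after CCl4. Hhip, a hedgehog antagonist, differed in being far below its quiescent level (7.58) in all 3 groups, with fitted differences of -3.20 ± 0.20 at 2 weeks and -2.64 ± 0.20 at 4 weeks beside -3.95 ± 0.20 in culture (adjusted p = 0.000127, 0.000203 and 3.38e-06). Its means in culture (3.63) and at 2 weeks (4.38) lay below the 4.76 guide, as did that of Steap4 in culture (4.48), so the sizes of those falls are not exact. Rgs5 and Adamtsl2 fell by 5.70 ± 0.14 and 4.90 ± 0.17 in culture, and by less than 1 log2 unit at each CCl4 time, where 3 to 7 of 8 fits that left out 1 array lost the call. Nes rose in culture and at 4 weeks, and Pdgfrb at both CCl4 times. The 4-week call of Nes was lost in 4 of 8 fits that left out 1 array (adjusted p up to 0.157), and the calls of Pdgfrb in 7 at 2 weeks (up to 0.182) and 1 at 4 weeks (0.0692). The CCl4 counts leaned on single arrays: the 8 became 4 without quiescent replicate 1, 1 and 2 without 2-week replicate 1 or 2, and 3 without either 4-week array, and the 11 became 6 and 7 without quiescent replicate 1 or 2 and 2 without either 4-week array.

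The genes most like the set as a whole were sought among the 787 other genes with an SD of at least 1 over the 8 arrays. The highest Pearson correlations with the mean centred profile of the 8 genes were those of Abi3bp (0.998), Tgfbr3 (0.998), Gdf2 (0.997), Ndrg2 (0.997) and Lifr (0.996). Tgfbr3 encodes a TGF-beta co-receptor, Gdf2 the ligand BMP9 and Lifr the receptor for leukaemia inhibitory factor. These are descriptions over 8 arrays, and the gap between culture and the other groups dominates each of them. By distance between centred profiles, Colec10 and Colec11 were both nearest to Abi3bp (0.46 and 0.76 log2 units over the 8 arrays), Pth1r to Wfdc1 (0.51), Ecm1 to Pear1 (0.23), Reln to Smoc2 (0.59) and Vipr1 to Clec14a (0.64), a gene known from endothelial cells. The nearest genes to Hgf and Cygb were Fos (0.56) and Fosb (0.77), immediate early transcription factor genes that were high in all freshly isolated cells and low in culture.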

How the data were processed

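The authors deposited log2 expression values. Per the submitters' processing notes these come from Expression Console, with RMA as the method; versions and the annotation build are not given in the sources used here. Normalization by RMA takes the arrays together, so values are relative to the other arrays, and a shift common to most genes would not show. Array medians over 41345 probe sets ran from 4.63 to 4.72, and values were used as deposited, with no detection calls. For arrays, their number limits the precision.

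The platform table gave a single symbol to 23521 probe sets, several to 1814 and none to 16010 (unnamed here). Where a gene had several, the probe set with the highest mean was used. All 22180 genes entered 1 fit of the 8 arrays in 4 groups with limma 3.58.1 (R 4.3.3; lmFit, eBayes), two-sided, with Benjamini-Hochberg adjustment over all genes of each comparison, and a call at an adjusted p under 0.05. The fit was tested on simulated data. Named genes were all 8 members, up to 4 called genes of each partner list by smallest p in culture, and the 4 other quiescent markers with the smallest p plus any called higher. The members, lists and rules were chosen with earlier results of these data known. Alternatives were a replicate block, each array left out, fewer arrays, an intensity trend, other scaling, a filter on dim genes and the mean of probe sets.

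Groups share replicate numbers in the labels, but same-numbered arrays did not deviate together from their group means (correlations of -0.04 to 0.07), so the numbers were not used as pairs.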

Additional observations from a re-analysis of the deposited data

How the results depend on the processing

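All 8 genes stayed lower in culture than in quiescent and than in CCl4 cells under all 16 alternatives. Of 640 single values, 625 kept their direction and side of the threshold, 8 lost a call, 5 gained one and 2 changed sign. Both sign changes were the uncalled 4-week minus 2-week difference of Reln, which became 0.03 with array medians subtracted and ran from -0.24 to 0.20 with 1 array left out. The count of genes lower at 2 weeks of CCl4 was 5, and became 3 with only the arrays compared and 2 to 5 with 1 array left out, 2 without 2-week replicate 1; it was 6 with an intensity trend, with or without the robust option. The count at 4 weeks was 5, and ran from 4 without either 4-week array to 6 without either culture array or with only the arrays compared. A fit with an array left out has fewer arrays and assumes that the lone array of its group varies like the other groups. The count of genes that fell in culture only was 3, and 2 without either culture array, with only the arrays compared (Hgf and Cygb each time) and with an intensity trend (Reln and Cygb). With the replicate block that count stayed 3 and no call on the 8 genes changed; over all genes the calls between CCl4 times went from 6 higher and 13 lower to 2 and 7. Depth does not apply to arrays; the cultured levels of Colec10, Colec11 and Cygb lie at the guide to background, which limits their folds.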
